A study of Mus musculus with 11 samples.

Results

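Stra8 (stimulated by retinoic acid 8) and 3 genes that act with it at meiotic entry, Gm4969, Meioc and Ythdc2, were followed through male germ cell development in single cells of the adult mouse testis. The 4 genes were chosen by name from a table of 20265 nuclear genes. Stra8 and Ythdc2 had rows under these symbols, Meioc had a row under its older name Gm1564, and Gm4969 (the gene of MEIOSIN) was not analysed here, so that the values below cover 3 genes. The cells were live, green cells from Dazl-GFP reporter mice, in which green fluorescent protein marks cells that use the germ cell gene Dazl. They were sorted singly into wells and counted by SORT-Seq, which reads the 3' ends of polyadenylated RNA and tags each molecule with a unique molecular identifier (UMI). The 3 mice were untreated adults: mouse 1 gave 8 libraries by CEL-Seq1, mouse 2 gave 1 library by CEL-Seq2 and mouse 3 gave 2 libraries by CEL-Seq2, of which 1 was sorted by a gate without index data. The mouse is the replicate (n = 3), strain and age in weeks are not in the labels, and the effect of CEL-Seq1 cannot be told apart from that of mouse 1.

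Retinoic acid is the signal that starts spermatogonial differentiation and, later, meiosis in the testis, and Stra8 is its best known target gene in germ cells. STRA8 works with MEIOSIN on the promoters of meiotic genes. MEIOC binds YTHDC2, an RNA helicase that recognises methylated adenosine in RNA, and together they lower transcripts of the mitotic programme, with the cyclin A2 gene Ccna2 the textbook example. RBM46 is a further RNA-binding partner of this pair, while DMRT1 holds spermatogonia out of meiosis and represses Stra8.

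In the GENCODE annotation of GRCm38 (mm10), Stra8 lies on the plus strand of chromosome 6 from 34920163 to 34939344 with 10 exons in its longest transcript. Meioc lies on the plus strand of chromosome 11 from 102663716 to 102682237 with 8 exons, Ythdc2 has 30 exons, and no other annotated gene overlapped any of these loci. Sequence upstream of the RefSeq starts (GRCm38.p6) was searched because retinoic acid receptors act on Stra8 and E2F6 represses germline promoters. The 250 bases before the start held 2 copies of AGGTCA, the core motif of retinoic acid receptors, in Stra8 and 1 copy of the E2F core TTCCCGC in Meioc, on the minus strand. Capitals mark the matches. For Stra8 only 30 bases around each match are shown, since that window lies within a 5' UTR exon of a GENCODE transcript, at chr6:34920742-34920771 and chr6:34920898-34920927, and the Meioc window is chr11:102665335-102665584, all on the plus strand.
Stra8 site 1: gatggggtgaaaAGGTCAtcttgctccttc
Stra8 site 2: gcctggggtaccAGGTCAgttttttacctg
Meioc: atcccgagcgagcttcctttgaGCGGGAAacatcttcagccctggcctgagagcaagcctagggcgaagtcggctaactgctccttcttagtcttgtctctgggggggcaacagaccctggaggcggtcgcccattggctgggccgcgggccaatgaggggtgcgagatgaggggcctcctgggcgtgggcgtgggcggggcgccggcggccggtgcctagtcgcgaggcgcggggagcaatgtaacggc
On either strand, AGGTCA was present in 14.0% and TTCCCGC in 3.82% of the 32851 RefSeq windows of this length. The motif CNCCTCAG, reported for STRA8 and present in 6.42% of windows, had no match in either window. A match is a description of the letters and was not tested as a binding site.

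Of 1920 wells, 1448 held at least 1000 UMIs and were kept as cells, with medians of 16275, 9830 and 14132.5 UMIs in mice 1, 2 and 3. Clustered without the members or the related genes described below, 1212 of these wells fell into 11 stages. The stages were ordered by pseudotime, a measure of distance along the path of changing expression. The markers that named the stages and set the start of the order included some of these related genes. The choice of stage 1 as the reference is therefore not independent of them. Marker genes placed undifferentiated spermatogonia-like wells in stage 1, differentiating spermatogonia-like wells in stages 2 and 3, leptotene and zygotene-like wells in stages 6 to 8 and pachytene-like wells in stages 9 to 11. Stage 4, led by Esx1, Pou4f1 and Rec8, and stage 5, led by Rbpms2, Eml5, Stra8, Prdm9 and Dmc1, kept no name. In both, the leading genes held fewer markers of the best-scoring class than of another class. For stage 4 the best-scoring class was differentiating spermatogonia (0 markers, against 2 of preleptotene). For stage 5 it was preleptotene (1 marker, against 2 of leptotene and zygotene). Stages 10 and 11 had median pseudotimes of 0.950 and 0.954, so their order is not resolved. Levels are CPM, UMIs of the gene per 1000000 UMIs in the summed wells of a mouse and stage, with library sizes scaled by TMM (a trimmed mean over genes). They are not divided by transcript length and are compared within a gene only. Across the 3 mice, 32 such sums held at least 10 wells. Stage 9 of mouse 2 was left out for its 9 wells.

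As a share of UMIs, Stra8 had 2 separate highs, a lower one in spermatogonia and a higher one at stage 5. Scaled to spike-in molecules, the order of these highs differed between mice and was not tested (values below). In stage 1 it stood at 260, 194 and 273 CPM in mice 1, 2 and 3. In stage 2 the values were 364, 455 and 507. Stage 3 had 41.7, 51.0 and 42.7, so that every mouse fell to a small part of its stage 2 level before Stra8 came back. Stage 4 had 162, 467 and 414, with mouse 1 well below the others. Stage 5 had 1007, 1648.5 and 1442, above every other sum of the same gene in any mouse. Stage 6 had 28.8, 37.7 and 67.7, and from stage 7 on no mouse exceeded 44.1. By mean level the order was stage 5 (1366 ± 328, SD, n = 3), stage 2 (442 ± 72.5), stage 4 (348 ± 163), stage 1 (243 ± 42.6) and stage 3 (45.1 ± 5.10). The mice of stage 5 and stage 2 did not overlap, nor did those of stages 1 and 3, whereas stages 2 and 4, stages 4 and 1, and all neighbours in the order below stage 3 overlapped.

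**Figure D1:**
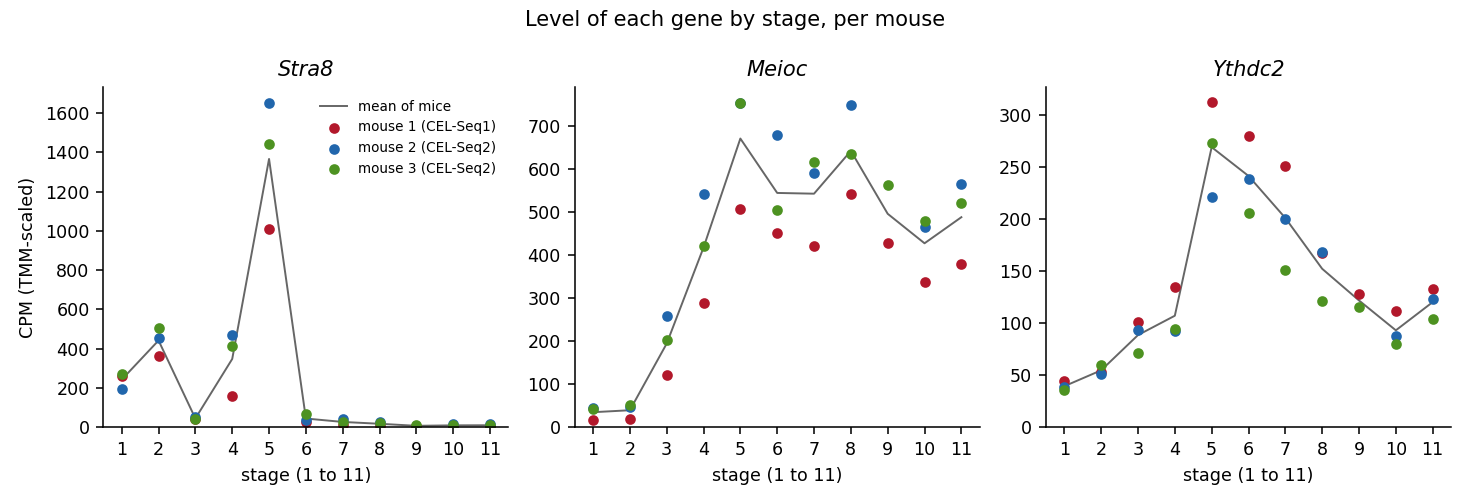
CPM (TMM-scaled, linear axis from 0) of Stra8, Meioc and Ythdc2 against stage, with 1 point per mouse and a grey line through the mean. Stra8 has highs at stage 2 and stage 5 and is low at stage 3, Meioc climbs from stage 3 and stays up, and Ythdc2 is highest at stage 5 and then declines.

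All 3 genes changed over the stages (edgeR quasi-likelihood F test, adjusted p of 5.28e-24 for Stra8, 1.98e-22 for Meioc and 4.01e-17 for Ythdc2), as did 94.8% of the 11686 genes tested. Single steps were more selective. From stage 1 to 2, Stra8 rose by 0.79 on the log2 scale (SE 0.24, adjusted p = 0.0116) and was the only 1 of the 3 called, against 12.7% of all genes higher at that step. This call was lost without mouse 2 (0.68, adjusted p = 0.102), without mouse 3 (0.71, adjusted p = 0.144) and in DESeq2 (0.72, adjusted p = 0.173). From stage 2 to 3 Stra8 fell by 3.30 (SE 0.29, adjusted p = 5.19e-10), in a step where 8.26% of genes were lower. From stage 3 to 4 it rose by 2.85 (SE 0.30, adjusted p = 1.5e-07), where 2.34% of genes were higher. From stage 4 to 5 it rose by a further 2.04 (SE 0.24, adjusted p = 2.31e-08), where 17.4% were higher. From stage 5 to 6 it fell by 4.87 (SE 0.33, adjusted p = 1.27e-12), where 13.7% were lower. These last 4 changes had the same direction in 3 of 3 mice. No later step of Stra8 was called, where 11.4%, 27.9%, 14.9%, 20.6% and 9.23% of genes were called at the steps to stages 7, 8, 9, 10 and 11. Stages 6 to 11 each lay below stage 1, with log2 differences from -2.48 to -4.96, in comparisons in which 30.2%, 32.7%, 37.6%, 38.2%, 40.4% and 40.1% of genes were lower.

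Stra8 was spread unevenly over wells in all of its early stages. In stage 1, 42 of 68 wells had a Stra8 UMI (61.76%, 95% exact interval 49.18 to 73.29), and the count per well ran from 0 through a median of 1.5 to 119. The 7 wells with most Stra8 held 56.69% of its 598 UMIs at that stage. By the same share of wells, the top 9 wells of stage 2 held 41.1% and the top 11 of stage 3 held 44.25%. The top 15 of stage 4 held 56.23% and the top 17 of stage 5 held 40.68%. With the 3 mice together, the 2 highs were close in this measure, and stages 1 and 4 were more concentrated. By mouse, stage 1 had 46.4%, 47.37% and 77.33% in mice 1, 2 and 3, and stage 5 had 49.41%, 34.92% and 36.53%. Mouse 1 was thus not more concentrated at stage 1 than at stage 5. These counts are not corrected for depth, and Meioc had 41.77% in stage 1 and 39.68% in stage 2. Of the wells with Stra8 in stage 1, 8 of 13 in mouse 1, 5 of 10 in mouse 2 and 6 of 19 in mouse 3 also held a UMI of Kit, the receptor gene of differentiating spermatogonia. Among wells without Stra8, 1 of 9, 2 of 5 and 2 of 12 did. Ranked over the 22, 15 and 31 wells, Stra8 and Kit per UMI had Spearman coefficients of 0.79, 0.46 and 0.40, given as a description since the wells share library and depth. In stage 2, 87 of 89 wells had a Stra8 UMI, with a median of 8 and a maximum of 124 UMIs.

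In stage 5, 135 of 163 wells had a Stra8 UMI (82.82%, interval 76.14 to 88.27), with a median of 5 and a maximum of 92 UMIs, at a median depth of only 7389 UMIs per well against 32066 in stage 2. After thinning each well to 3000 UMIs, the expected share with a Stra8 UMI at stage 5 was 60.4%, 83.2% and 75.4% in mice 1, 2 and 3. At stage 2 the thinned share was 55.9%, 65.2% and 52.3%, and at stage 3 it was 12.3%, 16.6% and 13.8%. For comparison, pachytene-like stage 10 had 0.696%, 7.09% and 3.67% after thinning, although 42.20% of its wells (median depth 95103) had a UMI as counted. How much of this is free RNA was not measured. Of the wells of stage 5, 144 of 163 were deep enough to be thinned, and in stage 4 it was 137 of 149. Within stage 5, wells with more Stra8 per UMI had less of Dmc1, the meiotic recombinase gene (Spearman coefficients of -0.61, -0.57 and -0.61 over 60, 47 and 56 wells). They also had more Dmrt1 (0.47, 0.51 and 0.47) and more Kit (0.48, 0.43 and 0.59). Stra8 itself had coefficients of 0.08, 0.20 and 0.14 with the depth of those wells, and all these values are descriptions without a test.

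**Figure D2:**
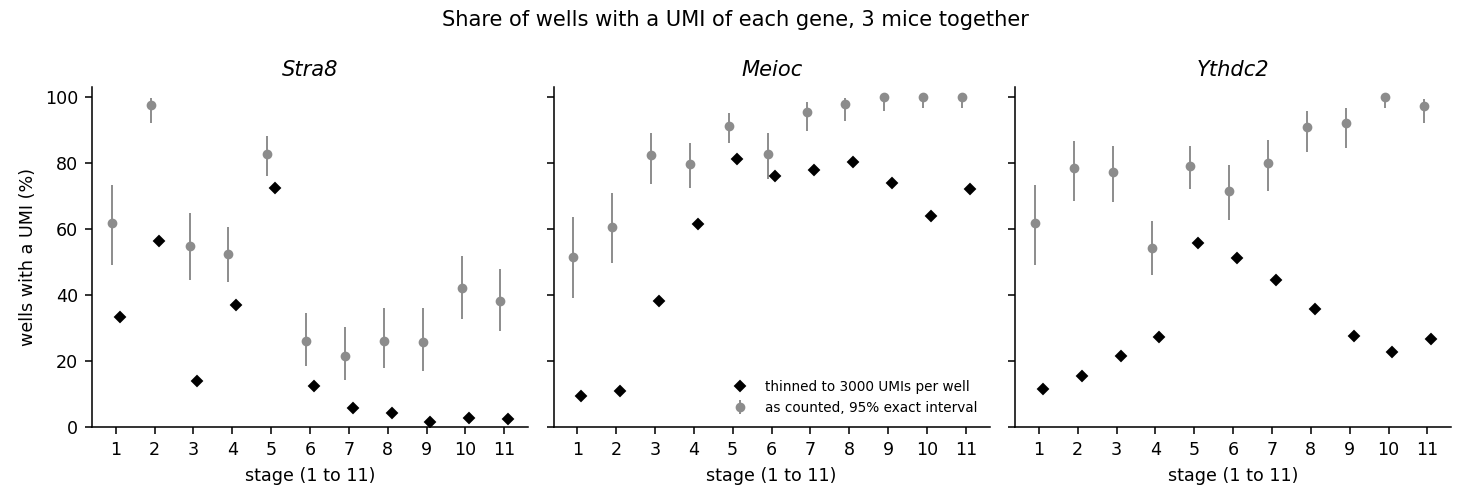
Percent of wells with at least 1 UMI of each gene by stage, with the 3 mice together. Grey points are as counted with the 95% exact binomial interval (counting error only) and black diamonds are the expected share after thinning to 3000 UMIs. The thinned share of Stra8 is high at stages 2 and 5 and near the floor from stage 7 on, while unthinned shares rise again in the deeply sequenced pachytene-like wells.

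A view without stage borders gave the same course. With the staged wells of each mouse cut into 20 equal bins along pseudotime, Stra8 was highest in bin 7 of mouse 1 (1489 CPM), bin 9 of mouse 2 (2372) and bin 8 of mouse 3 (2605), all made mostly of stage 5 wells. An earlier high stood in bin 2, at 373, 592 and 950 CPM in mice 1, 2 and 3. Between them the level went down to 21.1 in mouse 1 and 43.5 in mouse 2, both in bin 4, and to 41.7 in bin 5 of mouse 3. The expression-weighted mean rank in pseudotime, from 0 to 100, was 32.4 ± 4.61 for Stra8, 52.7 ± 2.08 for Ythdc2 and 57.8 ± 0.88 for Meioc (SD, n = 3). Stra8 was centred before Meioc by 25.4 ± 5.49 ranks and before Ythdc2 by 20.4 ± 3.13 ranks, in 3 of 3 mice each. Meioc was centred after Ythdc2 by 5.08 ± 2.82 ranks, also in 3 of 3 mice. An exact two-sided sign-flip permutation test gave p = 0.25 for each of the 3 differences, which is the smallest p that 3 mice allow. A centre averages over all staged wells and is not a time of onset. By mean CPM all 3 genes were highest at stage 5, and Meioc and Ythdc2 were still above stage 1 at stage 11.

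**Figure D3:**
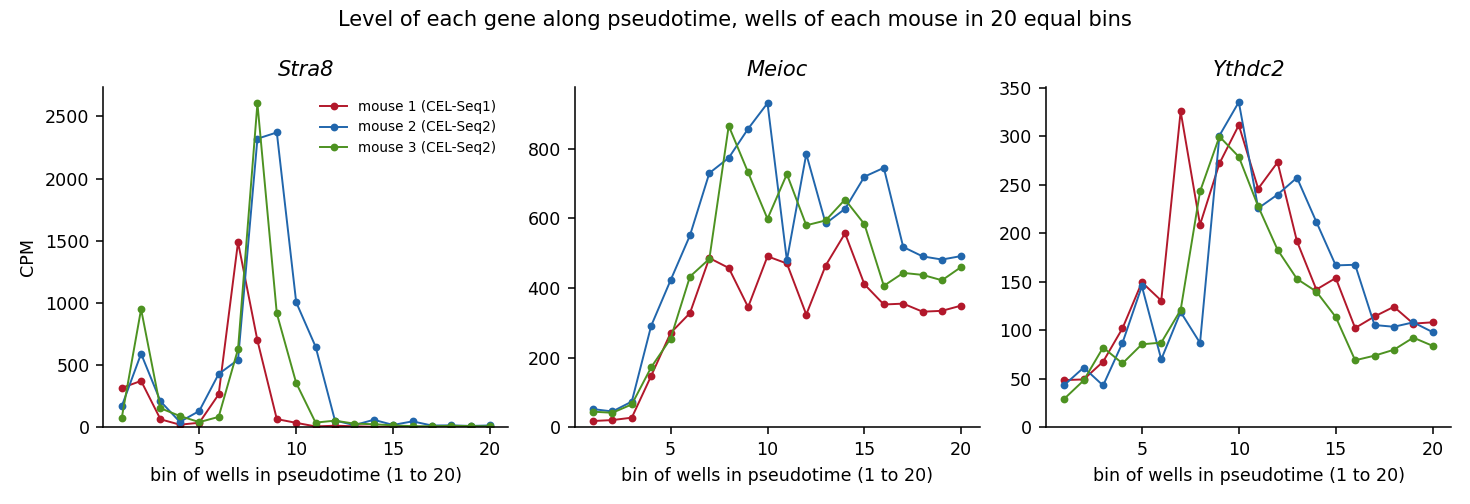
CPM of each gene in 20 equal bins of wells along pseudotime, drawn per mouse (13 to 25 wells a bin). Stra8 forms a narrow peak in bins 7 to 9 after a smaller one in bin 2, while Meioc and Ythdc2 rise across the gap between those peaks and keep a level above their start to bin 20.

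Meioc, the gene of the partner that anchors YTHDC2, was low in stages 1 and 2 and then rose in 3 consecutive steps. Stage 1 had 16.4, 46.0 and 42.8 CPM in mice 1, 2 and 3, and stage 2 had 19.8, 47.3 and 51.9. Stage 3 had 121, 259 and 203, stage 4 had 290, 541 and 422, and stage 5 had 507, 753 and 752. The rise began at stage 3, when Stra8 was at its low. The gene rose by 2.28 from stage 2 to 3 (SE 0.18, adjusted p = 1.58e-10, 6.4% of genes higher), by 1.12 from stage 3 to 4 (SE 0.15, adjusted p = 1.93e-05) and by 0.71 from stage 4 to 5 (SE 0.15, adjusted p = 0.000238), each in 3 of 3 mice. No later step was called. Stages 5 to 11 had means from 427 ± 79.0 to 671 ± 142, and neighbours in the order of levels from stage 5 down to stage 4 all overlapped. In the pachytene-like stages 10 and 11 Meioc still stood at 337 and 378 in mouse 1, 466 and 565 in mouse 2 and 479 and 521 in mouse 3, 3.65 and 3.84 above stage 1 on the log2 scale, where 35.4% and 34.4% of genes were higher. Mouse 1, the CEL-Seq1 mouse, was the lowest at all 11 stages.

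After thinning to 3000 UMIs the share of wells with a Meioc UMI was 5.04%, 12.6% and 11.4% in mice 1, 2 and 3 in stage 1. In stage 3 it was 25.8%, 49.9% and 43.8%, and in stage 5 it was 72.9%, 88.6% and 83.2%. As counted, 42 of 44 Stra8-positive wells of stage 5 in mouse 1, 39 of 40 in mouse 2 and 49 of 51 in mouse 3 also held Meioc. Among the Stra8-negative wells of that stage 12 of 16, 4 of 7 and 3 of 5 did. These pair counts were not thinned although depth differs between wells, and an association of the 2 genes was not tested.

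Ythdc2, the helicase gene, changed less and reached its highest mean level at stage 5. Stage 1 had 44.6, 38.3 and 35.5 CPM in mice 1, 2 and 3, and stage 2 had 53.4, 51.2 and 59.6. Stage 3 had 101, 93.8 and 71.2, and stage 4 had 135, 92.4 and 94.5. Stage 5 had 313, 221 and 274, more than the same mouse had at any earlier stage. The mean then went from 241 ± 36.8 at stage 6 to 93.2 ± 16.5 at stage 10. From stage 4 to 5 Ythdc2 rose by 1.34 (SE 0.15, adjusted p = 1.77e-08) in 3 of 3 mice, so that all 3 genes rose at this step, against 17.4% of all genes. Smaller calls were a rise of 0.65 from stage 2 to 3 (SE 0.16, adjusted p = 0.00634) and a fall by 0.41 from stage 7 to 8 (SE 0.15, adjusted p = 0.0347). The first was lost without mouse 1 (0.50, adjusted p = 0.183) and without mouse 2 (0.59, adjusted p = 0.0754), and the second without any 1 of the 3 mice (-0.26 to -0.47). Among all genes 6.4% were higher at the first of these steps and 13.7% lower at the second.

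Against stage 1, all 3 genes were higher at stage 5, by 2.39 for Stra8 (SE 0.24), 4.29 for Meioc (SE 0.19) and 2.78 for Ythdc2 (SE 0.17), with adjusted p of 2.82e-10, 4.86e-19 and 1.83e-15, and 25.9% of genes were higher in that comparison. At stage 10, Stra8 had a log2 difference of -4.90 from stage 1 and Ythdc2 of 1.24. These comparisons share the stage 1 sums.

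The amount of RNA per well moved strongly with stage, which affects what a share of UMIs means. Nuclear UMIs per spike-in (ERCC) UMI averaged 94.2 ± 82.6 in stage 2 wells. In stages 5 and 6 they averaged 22.3 ± 13.9 and 21.8 ± 16.3, and stage 10 had 238 ± 166 (SD, n = 3). Scaled to the spike-ins, the median of all genes moved by -0.68, -1.0035 and -0.35 at the steps to stages 3, 4 and 5 and by 0.71 and 1.17 at the steps to stages 7 and 8. On this scale Stra8 kept the direction of its steps, with 0.92, -3.96, 1.88, 1.69 and -4.94 from stage 2 to stage 6, all called. In those directions 12.9%, 43.6%, 0.24%, 8.8% and 12.8% of all genes were called, so Stra8 was 1 of 28 genes of 11686 called higher at stage 4. The order of the highs was not resolved on this scale. Stage 2 was 0.92 above stage 1 (SE 0.27) and stage 5 was 0.53 above it (SE 0.26, adjusted p = 0.0645). The median gene had moved by -1.84 from stage 1 to stage 5. Per 1000 ERCC UMIs, Stra8 had 68.5, 24.9 and 22.9 UMIs in mice 1, 2 and 3 in stage 2, and 36.2, 27.2 and 19.3 in stage 5. Mice 1 and 3 were thus higher in stage 2 and mouse 2 in stage 5, and stage 5 was not tested against stage 2. In plain counts, a stage 2 well held 15.6 ± 3.87 Stra8 UMIs and a stage 5 well 11.9 ± 4.75, a difference within the spread between mice, with mouse 2 higher in stage 5 (12.1 against 11.6). Meioc kept the rise at stage 3 (1.64, adjusted p = 5.82e-07, 0.702% of genes higher), whereas the steps to stage 4 (0.17, adjusted p = 0.469) and stage 5 (0.36, adjusted p = 0.169) were not called. Instead it rose by 0.69 and 1.46 at the steps to stages 7 and 8 (adjusted p of 0.00864 and 3.12e-08), where 33.2% and 60.9% of genes were higher. Ythdc2 kept its rise at stage 5 (1.01, adjusted p = 0.000226), had -0.011 at stage 3, and turned from a fall to a rise of 0.78 at stage 8 (adjusted p = 0.001). Counted per well, Meioc went from 5.91 ± 2.56 UMIs at stage 5 to 34.6 ± 10.6 at stage 10, and Ythdc2 from 2.32 ± 0.77 to 7.59 ± 2.28.

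**Figure D4:**
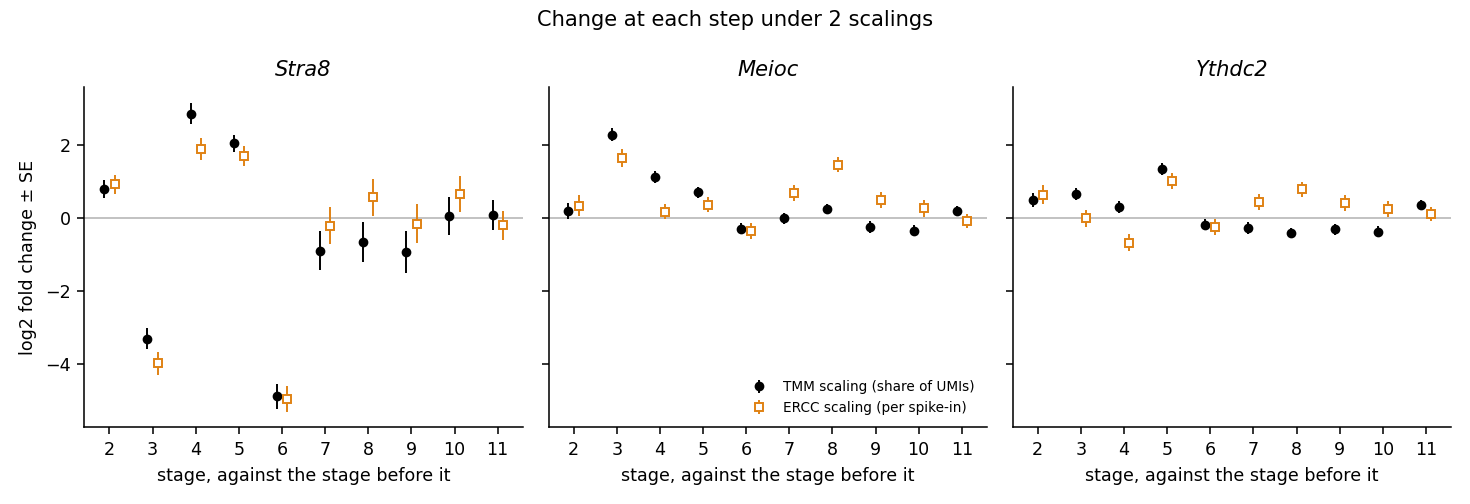
Log2 fold change ± SE from each stage to the next for the 3 genes, by edgeR on sums of the 3 mice. Filled circles use TMM scaling (share of UMIs) and open squares use ERCC scaling (per spike-in molecule). The changes of Stra8 up to stage 6 have the same sign on both scales, while Meioc and Ythdc2 lie higher on the spike-in scale from stage 7 to stage 10.

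The genes whose levels over the stages were most like those of each member were found by the mean over mice of Pearson's r of log2(CPM + 1), over 11 stages in mice 1 and 3 and 10 in mouse 2, among 11685 genes. For Stra8 they were Sgpl1 (0.92), Atm (0.91), Wipf2 (0.91), Rapgefl1 (0.91) and Rfwd3 (0.90). Atm, a kinase gene of the DNA damage response, had 459 ± 26.4 CPM at stage 5 and 76.8 ± 14.8 at stage 6, yet 175 ± 30.8 at stage 3, where Stra8 had its low. For Meioc they were Dpep3 (0.96), the condensin gene Smc4 (0.95), Bsg (0.95), Ergic3 (0.94) and Immp1l (0.94). For Ythdc2 they were Emc7 (0.94), Rabgap1l (0.93), Hnrnph1 (0.93), Lnp (0.93) and Vps35 (0.93). Meioc and Ythdc2 were alike (mean r 0.86, rank 99 for Meioc and rank 78 for Ythdc2), whereas Stra8 had mean r of -0.41 with Meioc and -0.12 with Ythdc2. These are correlations over stages within mice, given without a test.

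Genes that make or read the retinoic acid signal moved in both directions between stage 1 and stage 5 as a share of UMIs. On the spike-in scale none of the 9 tested was higher and 5 were lower (median -3.17). On that scale 2.56% of all genes were higher and 77.2% lower (median -1.84). Of 18 genes listed, these 9 were abundant enough to test, of which 3 rose and 5 fell as a share of UMIs (median log2 change -1.38, against -0.03 over all genes, with 25.9% higher and 30.4% lower). Aldh1a2, which makes retinoic acid, rose from 54.0, 25.5 and 55.6 CPM to 159, 204 and 280 in mice 1, 2 and 3 (log2 change 2.15, adjusted p = 2.68e-11), with no overlap. Stage 5 was not the highest level of Aldh1a2, which had means of 214 CPM there, 96.6 at stage 6 and 295 at stage 10. Rdh10, the enzyme of the step before it, rose by 2.26 (adjusted p = 6.69e-05), and neither of these 2 was called on the spike-in scale (0.36 and 0.49, adjusted p of 0.194 and 0.329). The receptor gene Rxra fell by 4.64 (adjusted p = 2.6e-10).

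Spermatogonial regulators that act before Stra8 mostly fell. Of 10 listed, 9 were tested, with 6 lower and 2 higher at stage 5 than at stage 1 (median -2.64, against 30.4% lower and 25.9% higher of all genes). None was higher and 8 were lower on the spike-in scale (median -4.47), where 77.2% of all genes were lower (median -1.84). Some genes of this list were also markers of the early stages. Their falls from stage 1 are therefore not independent of how that stage was chosen. The values that follow are shares of UMIs. Dmrt1 stood between 370 and 735 CPM in all mice through stage 4, and dropped to 61.6, 105 and 91.7 at stage 5 and to 15.5, 6.28 and 15.4 at stage 6. It fell by 2.36 from stage 4 to 5 (adjusted p = 1.03e-09) and by 2.52 from stage 5 to 6 (adjusted p = 5.7e-05). As a share of UMIs, Dmrt1 was thus still high when Stra8 rose at stage 4, and fell when Stra8 rose further at stage 5. On the spike-in scale Dmrt1 already fell by 0.85 from stage 2 to 3 (adjusted p = 0.00303) and by 1.29 from stage 3 to 4 (adjusted p = 2.42e-05). As a share of UMIs, Sohlh1, a transcription factor gene of differentiating spermatogonia, fell by 3.76 and Sall4 by 6.35 between stages 1 and 5 (adjusted p of 7e-11 and 3.46e-14). Zbtb16 had 3 UMIs left over the 3 mice, 68.1-fold lower with a 95% counting interval of 23.1 to 332. Nanos3 went from 99 UMIs to 0 of 1399702, which allows up to 2.14 CPM, so it was at least 21-fold lower (3 counts over the group as the limit). Both genes were already lower at stage 2, with means of 28.1 CPM for Zbtb16 (139 at stage 1) and 1.81 for Nanos3 (42.1 at stage 1).

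PRC1.6, a Polycomb complex that keeps germline and meiotic promoters silent, was listed with 13 subunit genes, all tested. At stage 5, 5 were lower and 2 higher than at stage 1 (median -0.16, against 30.4% lower and 25.9% higher of all genes). On the spike-in scale 12 were lower and none higher (median -1.99), where 77.2% of all genes were lower and 2.56% higher (median -1.84). E2f6, the gene of the DNA-binding subunit whose core motif stands in the Meioc window above, declined from 143, 110 and 125 CPM to 7.11, 0 and 17.1 (log2 change -3.78, adjusted p = 2.35e-09). Hdac2 fell by 1.36 and Cbx3 by 1.23, while Rnf2 rose by 0.80, a direction that turned to -1.07 on the spike-in scale. At stage 4, E2f6 had 30.7, 46.2 and 39.4 CPM in mice 1, 2 and 3, and its step from stage 4 to 5 was a fall by 2.01 (adjusted p = 0.00226).

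Meiotic prophase genes rose together with the stage 5 high of Stra8. Of 34 genes, 33 were higher at stage 5 than at stage 1 and none was lower (median 2.93). Of all genes, 25.9% were higher and 30.4% lower in that comparison (median -0.03). On the spike-in scale 21 were higher and 1 lower (median 1.18), where 2.56% of all genes were higher and 77.2% lower (median -1.84). From stage 4 to 5 alone, 31 rose and 1 fell as a share of UMIs (median 2.45). At that step 17.4% of all genes were higher and 18.3% lower (median -0.02). Prdm9, which sets the sites of meiotic breaks, stood at 66.4, 65.2 and 69.3 CPM at stage 4 and at 327, 518 and 378 at stage 5, and was down to 88.7, 107 and 120 at stage 6. Between stages 1 and 5 it rose by 5.08, Terb1 of the telomere attachment by 4.80, the recombination gene Meiob by 4.58 and Majin, a partner of TERB1, by 4.35, with adjusted p from 1.47e-18 to 8.65e-14. Rec8, the meiotic cohesin gene, differed in timing. It rose by 3.09 from stage 3 to 4 (adjusted p = 0.000745), when it had 40.9, 65.2 and 36.2 CPM, and fell by 1.58 from stage 4 to 5 (adjusted p = 0.0167). Its difference between stages 1 and 5 was 1.62 (adjusted p = 0.0404), a call lost without mouse 2 (0.98, adjusted p = 0.226) and without mouse 3 (2.21, adjusted p = 0.0834), and its sign turned on the spike-in scale (-0.12).

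Among 14 genes of YTHDC2 partners and of the machinery that writes, erases or reads methylated adenosine, 7 were higher and 2 lower at stage 5 than at stage 1 (median 0.46, against 25.9% higher and 30.4% lower of all genes). None was higher and 13 were lower on the spike-in scale (median -1.38), where 77.2% of all genes were lower (median -1.84). Mettl14, of the methyltransferase, rose by 1.27, the reader Ythdf2 by 0.87 and the partner Rbm46 by 0.90, and these 3 turned to -0.54, -0.97 and -0.93 on the spike-in scale. The demethylase Fto fell by 1.14. Rbm46 ran later than Ythdc2, with 582, 543 and 625 CPM at stage 7 against 255.9, 375 and 336 at stage 5.

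**Figure D5:**
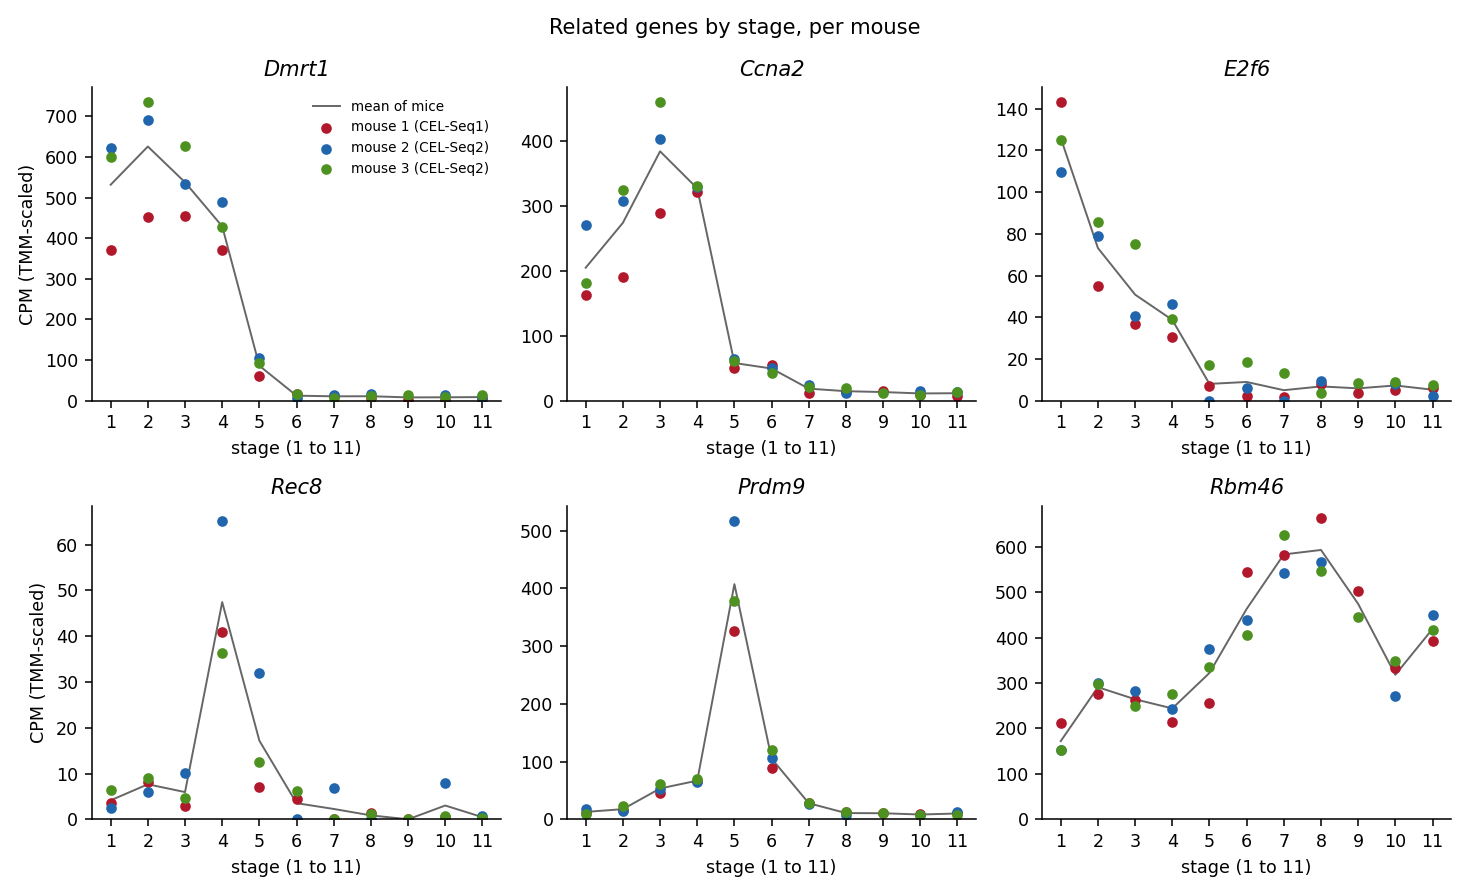
CPM (TMM-scaled, linear axes from 0) of 6 related genes by stage, with 1 point per mouse and a grey line through the mean. Dmrt1 and Ccna2 drop at stage 5, E2f6 declines from stage 1, Rec8 is highest at stage 4, Prdm9 at stage 5 and Rbm46 at stages 7 and 8.

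Ccna2, the transcript through which MEIOC and YTHDC2 are best known, stayed high as a share of UMIs while Meioc rose and then dropped at stage 5. It had 163, 271 and 181 CPM at stage 1, 289, 404 and 460 at stage 3 and 322, 329 and 331 at stage 4, where Meioc was already 3.59 above stage 1 (17.2% of genes were higher in that comparison). At stage 5 it had 49.8, 64.0 and 60.6. The fall by 2.52 from stage 4 to 5 (SE 0.20, adjusted p = 5.35e-12) came at the same step as the rise of Ythdc2. On the spike-in scale Ccna2 already fell by 1.18 from stage 3 to 4 (adjusted p = 8.68e-06) and then by 2.83 (adjusted p = 7.77e-13). Of 18 mitotic cell cycle genes, 12 fell and 2 rose at this step (median -1.11, against 18.3% lower and 17.4% higher of all genes). Between stages 1 and 5, 10 were lower and 5 higher (median -0.92, against 30.4% lower and 25.9% higher of all genes). On the spike-in scale 14 were lower and 1 higher (median -2.80), where 77.2% of all genes were lower and 2.56% higher (median -1.84). As a share of UMIs, Aurkb fell by 4.82, Ccnb1 by 2.81 and Plk1 by 2.31, while Bub1, a checkpoint kinase gene, rose by 2.56 (adjusted p = 6.38e-16). The 5 that were higher were Bub1, the topoisomerase gene Top2a, the proliferation marker Mki67, Tpx2 and Nusap1, of which all but Bub1 were named after their values were seen.

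Of 24 genes of the G1/S transition and DNA replication, 23 were tested, with 7 higher and 9 lower at stage 5 than at stage 1 (median -0.09, against 25.9% higher and 30.4% lower of all genes). On the spike-in scale 2 were higher and 18 lower (median -1.89), where 2.56% of all genes were higher and 77.2% lower (median -1.84). As a share of UMIs, the cyclin E2 gene Ccne2 rose by 3.61 (adjusted p = 8.81e-12). Ccnd2, Cdk6 and Cdkn1b had 2, 1 and 3 UMIs left at stage 5 in the 3 mice together, from 739, 65 and 125 at stage 1. They were 235-fold, 41.4-fold and 26.5-fold lower, with 95% counting intervals from 64.9 to 1950.0, from 7.17 to 1660.0 and from 8.87 to 130.0. Ccnd2 and Cdkn1b were already low at stage 2, with means of 31.0 and 0.90 CPM against 351 and 58.5 at stage 1. Cdk6 was not, with 47.3 at stage 2 against 26.3 at stage 1. Ccnd2 was also a marker used to name the stages.

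Markers of other cell types were low in the stages but not absent. The 6 spermatid markers summed to 18.8 to 57.4 CPM over mice at stage 1, 71.1 to 134 at stage 5 and 81.6 to 354 at stage 6. The 7 Sertoli cell markers summed to 81.7 to 118 at stage 1, 11.8 to 78.3 at stage 2 and 40.3 to 93.0 at stage 5. The 5 Leydig cell markers summed to at most 19.0 at stage 5 with 4 at 0, and the 3 endothelial markers were all at 0 there. The part of RNA from other cells in the stage 5 values was not tested.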

How the data were processed

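SORT-Seq wells of 3 mice were analysed from the UMI table the authors deposited, which holds whole-number counts per gene and well. Per the submitters' processing notes, BWA 0.7.10 and mm10 were used, and how reads were counted is not given in the sources used here. The deposited read counts, and the deposited transcripts (estimated counts, rounded to whole numbers first), served as alternatives. For mouse 1 wells in the transcripts table were not in the order of the UMI table and were matched by expression. Wells with at least 1000 nuclear UMIs were kept. All wells together, kept or not, held 16682671, 5866174 and 18032562 nuclear UMIs in mice 1, 2 and 3. Doublets were not removed, since each well received a sorted cell. Wells were clustered and ordered on odd-numbered autosomes without the members and list genes (Seurat 5.3.0 anchors, scanpy 1.11.5, Leiden resolution 1.0, diffusion pseudotime). The markers for the stage names and the start of the order included list genes. Excluding 46 spermatid-like wells (led by Prm2 and Prm1) and 2 clusters of 107 and 83 wells with a median under 1/3 of that of all kept wells was decided after the clusters were seen. The members and lists were chosen with earlier results of these data known. UMIs were summed per mouse and stage (142214 to 5024166 per sum) and fitted with edgeR 4.0.16 (quasi-likelihood, TMM, filterByExpr, Benjamini-Hochberg, called at adjusted p under 0.05) with the mouse as a block, since each mouse gave the wells of all stages. SE is the log2 change divided by the root of the quasi-likelihood F. Whether a difference reflects mouse, library or protocol beyond the 3 mice is not measured. Checked on simulated counts for stage 5 against stage 4, 60 of 100 genes changed by 2-fold and 89 of 100 changed by 4-fold were recovered, with 10 false calls among 7502 of 7702 genes. Named genes were the members, up to 4 genes per list with the largest change past the threshold between stage 5 and stage 1, Ccna2, Rec8, Rbm46 and Dmrt1, and the 5 genes most like each member. 1 gene that this rule names is not reported here. Alternatives were other scaling (median-ratio, ERCC spike-ins), DESeq2 1.42.0, no filter, other count tables, no block, single mice left out, other minimums of wells and UMIs, no gate-sorted library, and other staging and thinning. Intervals cover counting error only.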

Additional observations from a re-analysis of the deposited data

Results flagged for a closer look

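Wells outside the stages also held the members, above the limit that a count of 0 allows. The 46 spermatid-like wells had 433 Stra8, 497 Meioc and 155 Ythdc2 CPM, with Stra8 at 520, 545 and 324 in mice 1, 2 and 3 and most of it in a few wells. The 107 wells led by Vmn2r55, with a median of 1575 UMIs, had 399.9, 299.9 and 75.0 of Stra8, Meioc and Ythdc2. The 83 wells led by Plekhg3, with a median of 2284 UMIs, had 61.0, 395 and 73.2. The 472 wells under 1000 UMIs had 206, 329 and 123. These wells entered no comparison, and the source of the RNA in them was not tested.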

How the results depend on the processing

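Over the alternatives, 736 of the recomputed values kept their direction and their side of the threshold or stayed within the spread, 30 fell short of the threshold, 10 moved and 7 turned direction. The rise of Stra8 from stage 1 to 2 (0.79) was not called in DESeq2 (0.72), on deposited reads (0.95) or with sums of at least 20 wells (0.54), and ranged from 0.68 to 0.96 with a mouse left out. Scaling to ERCC spike-ins took the call from Meioc at stage 4 (0.17) and stage 5 (0.36), turned Ythdc2 at stage 3 (-0.011) and stage 8 (0.78), and turned Rnf2 (-1.07), Rec8 (-0.12), Mettl14 (-0.54), Rbm46 (-0.93) and Ythdf2 (-0.97) between stages 5 and 1. Ythdc2 at stage 8 was also not called with no filter (-0.34), on reads (-0.28) or on transcripts (-0.36), and ranged from -0.26 to -0.47 with a mouse left out. Ythdc2 at stage 3 ranged from 0.50 to 0.89. Without the mouse as a replicate block, calls were lost for Stra8 at stage 2 (0.86), Meioc at stages 4 (1.10) and 5 (0.68) and Ythdc2 at stages 3 (0.69) and 8 (-0.40), and calls over all genes and the 10 steps went from 22095 to 9245. That count was 44603 with ERCC scaling, 12211 on reads and 11241 to 17385 with a mouse left out. Median-ratio scaling moved the median of all genes by up to -0.20 against stage 1. Weights not scaled to depth put Meioc 47.7 and Ythdc2 40.6 ranks after Stra8. At stage 5 the mean share over mice of wells with a UMI was 81.6% for Meioc and 55.5% for Ythdc2 after thinning to 3000 UMIs, 59.3% and 32.3% at 1500 UMIs and 91.5% and 79.0% without thinning. The cause of these differences was not tested. From stage 6 on Stra8 rests on 6 to 51 UMIs per mouse and stage, which limits the precision of its steps there.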
